A study of Mus musculus with 6 samples.

Results

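Genes of the ISG15 system and other interferon effectors were followed across brain microglia isolates of mice with experimental autoimmune encephalomyelitis (EAE). EAE is a model of multiple sclerosis. The set holds 10 genes picked by name (Isg15, Usp18, Isg20, Rsad2, Cmpk2, Bst2, Ifitm3, Rtp4, Xaf1 and Ifi27l2a) among 19505 named genes on the array, and each of them had 1 probe set. RNA from 3 conditional knock-out (CKO) samples and 3 control samples was hybridised, 1 array per sample. Every mouse was a female C57BL/6 animal immunised with 100 μg of recombinant MOG (myelin oligodendrocyte glycoprotein) and given 300 ng of pertussis toxin on that day and 48 h later, and microglia were taken from the brain at the peak of disease. The CKO label reads as a conditional knock-out in B cells, which the series title ties to B cells expressing GM-CSF, a myeloid growth factor. The sources used here do not give the deleted gene, the Cre driver, the age of the mice, the genotype behind the control label or the way microglia were isolated. Nothing in the labels says that replicates are separate animals. A p-value here sets the difference between groups only against the spread among these samples, and that spread may be technical. The comparison asks how brain microglia differ between CKO and control mice at the peak of EAE.

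Type I interferon binds a receptor of the Ifnar1 and Ifnar2 chains, and the kinases Jak1 and Tyk2 then activate a transcription factor complex that contains Stat2 and Irf9. This complex binds the interferon-stimulated response element in the promoters of antiviral genes, while interferon-gamma acts mainly at gamma-activated sites. Isg15 is a ubiquitin-like protein among these products: Uba7 activates it, Ube2l6 carries it, Herc6 attaches it to target proteins in mouse, and Usp18 removes it. Microglia turn on such genes in infection, demyelination and ageing.

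Promoter sequences are shown because they carry the element through which these genes are usually induced. Windows of 250 bases before to 50 bases after an annotated start, from RefSeq (GRCm38.p6), were found for 7 of the 10 genes, with 9 windows in all because Isg20 has 3. They were searched on both strands for the response element, taken as 2 copies of GAAA with a spacer of any 2 bases (the longer form) or any 1 base (the shorter form). Capitals mark the matches, which overlap each other in Isg15 and Bst2, and each sequence reads 5′ to 3′ along the gene. The stretches before the start are 250 bases long, except that of Cmpk2, and the stretches from the start are 30 bases long. The start is that of 1 annotated transcript. It lies 168 bases inside the gene's interval in Xaf1 and 98 bases inside it in Cmpk2, whose printed stretch of 152 bases ends before the first base of the gene.
Isg15, before the start, chr4:156200819-156201068, minus strand: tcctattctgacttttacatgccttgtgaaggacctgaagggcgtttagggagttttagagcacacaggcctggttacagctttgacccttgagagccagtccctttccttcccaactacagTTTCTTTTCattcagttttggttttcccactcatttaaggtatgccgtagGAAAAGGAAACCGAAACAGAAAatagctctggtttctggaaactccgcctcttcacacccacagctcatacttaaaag
Bst2, before the start, chr8:71537473-71537722, minus strand: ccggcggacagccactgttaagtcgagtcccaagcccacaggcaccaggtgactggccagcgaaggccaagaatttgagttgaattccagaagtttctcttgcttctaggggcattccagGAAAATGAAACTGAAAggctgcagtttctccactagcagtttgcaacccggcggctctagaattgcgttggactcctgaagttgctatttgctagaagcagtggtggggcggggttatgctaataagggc
Rsad2, before the start, chr12:26456453-26456702, minus strand: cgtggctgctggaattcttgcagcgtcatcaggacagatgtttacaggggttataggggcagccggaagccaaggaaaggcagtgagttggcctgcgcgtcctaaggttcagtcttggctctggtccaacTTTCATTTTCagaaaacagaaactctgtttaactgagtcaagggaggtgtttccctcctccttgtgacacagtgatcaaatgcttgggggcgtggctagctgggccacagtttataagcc
Cmpk2, before the start, chr12:26468965-26469116, plus strand: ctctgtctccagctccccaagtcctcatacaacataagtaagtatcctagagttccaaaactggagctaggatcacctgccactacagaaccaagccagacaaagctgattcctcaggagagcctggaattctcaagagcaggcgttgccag
Ifitm3, from the start, chr7:141010715-141010744, minus strand: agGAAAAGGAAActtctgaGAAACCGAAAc
Xaf1, from the start, chr11:72301629-72301658, plus strand: tgtgtgcaaaGAAACGAAActccacagaag

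Isg15 held 3 overlapping matches to the longer form between 78 and 57 bases before its start, and 1 match to the shorter form on the opposite strand. Bst2 held 2 overlapping matches between 130 and 115 bases before the start. Rsad2 held 1 on the opposite strand, between 120 and 111 bases before the start. In Ifitm3 both matches lay after the start, at bases 3 to 12 and 20 to 29 of the transcript, and Xaf1 had the shorter form at bases 11 to 19. Neither form was found in the windows of Cmpk2 or Isg20. The longer form occurred in 4 of the 9 windows and in 3.44% of all 32851 windows of this length, and the shorter form in 2 of the 9 and in 3.17% of all. Gamma-activated sites, spelled TTCNNNGAA, were in 3 of the 9 windows (Isg20, Ifitm3 and Bst2) and in 8.30% of all; in Ifitm3 and Bst2 the site overlaps a response element match. These matches are letters in a window and not evidence of binding.

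All 10 genes had a lower mean in CKO isolates than in control isolates, and none passed the test. With a limma fit over all 22206 probe sets, 0 of the 10 reached a Benjamini-Hochberg adjusted p under 0.05, with values from 0.103 to 0.605, while 0.00901% of all probe sets did so as lower in CKO. At an unadjusted p under 0.05 stood 9 of the 10, all lower in CKO, against 6.35% of all probe sets in that direction. The 3 CKO values lay wholly below the 3 control values for 6 genes, namely Usp18, Isg20, Bst2, Rtp4, Xaf1 and Ifi27l2a, against 8.48% of all probe sets. The median log2 fold change of the 10 genes was -1.77, with a range from -2.29 to -0.83, and the median over all named genes was 0.05. The set was chosen with earlier results of these arrays known, so these counts describe the genes and carry no p of their own.

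**Figure D1:**
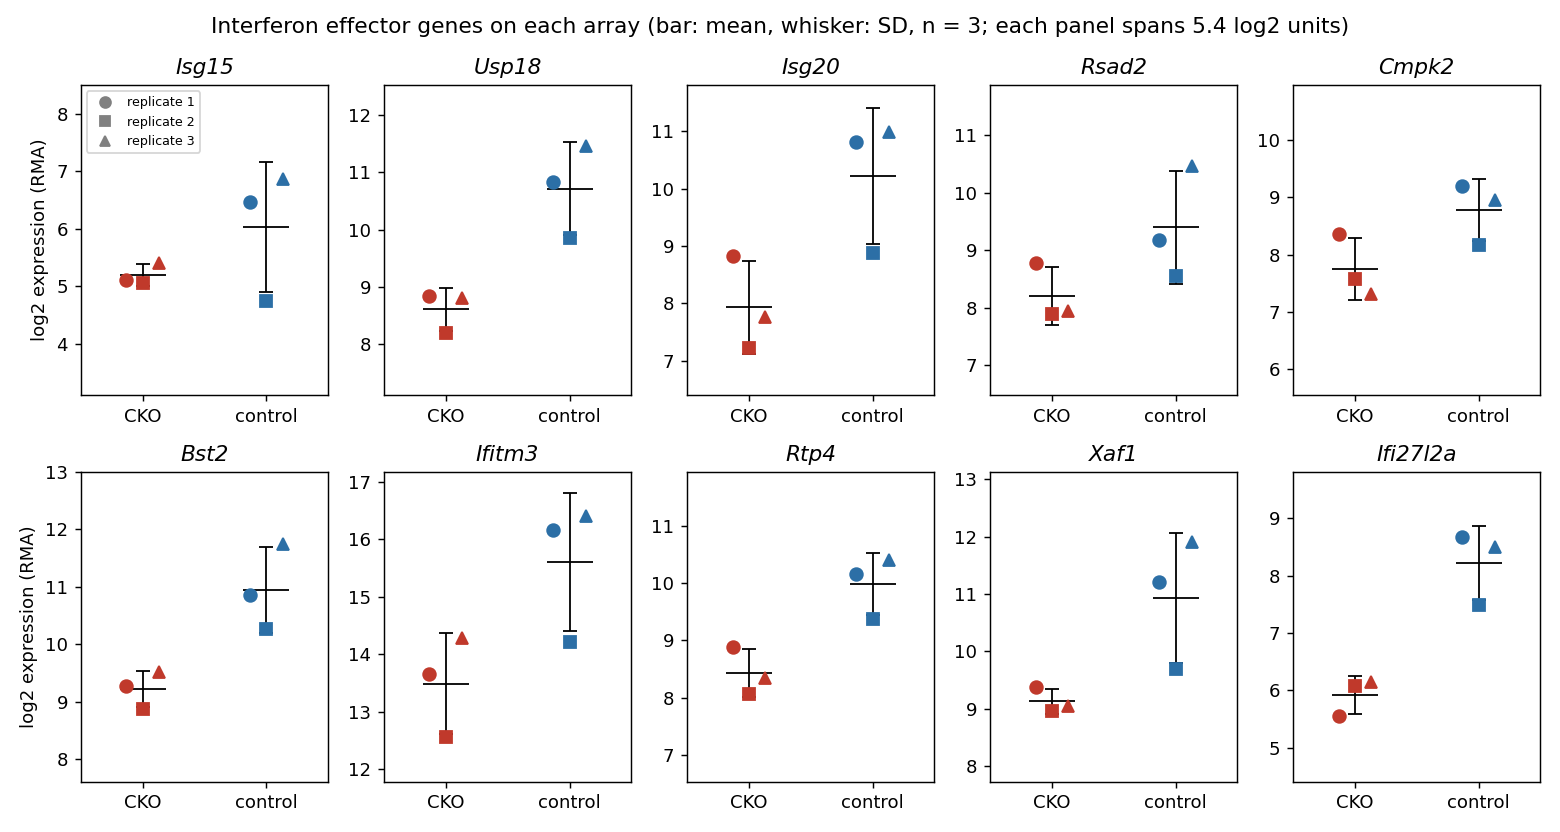
Log2 expression (RMA, vertical axis) of the 10 genes in the CKO group and the control group, 1 symbol per array, with the group mean as a bar and the SD as a whisker (n = 3). Control replicate 2, the square, is the lowest control for all 10 genes, and for Isg15 it lies below every CKO array.

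The arrays differed within groups before any of these genes is considered. The interquartile range of log2 values was 3.08 and 3.11 on CKO replicates 2 and 3, and 3.66 to 4.0 elsewhere; both narrow arrays belong to CKO. Slc1a2, a glutamate transporter of astrocytes, stood at 16.92, 12.90 and 12.57 on CKO replicates 1, 2 and 3 and at 12.07, 15.02 and 10.79 on control replicates 1, 2 and 3. Astrocyte markers as a list deviated by 2.75 on CKO replicate 1 and by 1.25 on control replicate 2, and by -1.45 to -0.78 on the other arrays. P2ry12, a receptor that marks resident microglia, was at 19.65 to 19.72 in CKO isolates and 18.76 to 19.35 in control isolates, near the highest value on the arrays (19.93), where values may be compressed. The mean level of 11 microglial markers was 16.61 to 17.13 on the CKO arrays and 16.22 to 16.71 on the control arrays. Counts are also given without CKO replicate 1 or control replicate 2.

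Isg15 (chr4:156199424-156200818), the modifier itself, had the smallest difference of the set. Its log2 values were 5.11, 5.06 and 5.41 on CKO replicates 1, 2 and 3, against 6.47, 4.74 and 6.87 on control replicates 1, 2 and 3. The groups overlap, since control replicates 1 and 3 lie above every CKO array and control replicate 2 lies below them all. The log2 fold change was -0.83 (SE 0.52, 95% interval -2.02 to 0.35, limma adjusted p = 0.605). This probe set was dim: it stood at percentiles 8.7 to 17.0 of all probe sets on the CKO arrays, at percentile 9.1 on control replicate 2, and at percentiles 39.2 and 46.1 on control replicates 1 and 3. How far it was above background was not measured here. The difference was -1.48 without control replicate 2 (limma adjusted p = 0.16) and -0.41 without control replicate 3.

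Usp18 (chr6:121245906-121270917), the protease that takes Isg15 off its targets and also dampens signalling at the type I interferon receptor, separated the groups. Values were 8.85, 8.19 and 8.80 on CKO replicates 1 to 3, against 10.83, 9.85 and 11.45 on control replicates 1 to 3. The lowest control lay 1.0 log2 unit above the highest CKO array. The log2 fold change was -2.10 (SE 0.43, 95% interval -3.08 to -1.11, limma adjusted p = 0.14), a 4.28-fold lower geometric mean in CKO. Usp18 was called without control replicate 2 (limma adjusted p = 0.0462) and without CKO replicate 1 (0.0256). Dropping CKO replicate 1 leaves only the pair of narrow-range CKO arrays, and the genotype and the width of the value range then cannot be told apart.

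The enzymes that attach Isg15 also had lower means in CKO. All 7 measured genes of Isg15 conjugation had lower means in CKO, 5 of them at an unadjusted p under 0.05 (6.35% of all probe sets) and 5 without overlap (8.48% of all). None reached the adjusted threshold, the median log2 fold change was -1.40, and Isg15 and Usp18 are 2 of the 7. Ube2l6, the conjugating enzyme, was at 9.81, 9.74 and 10.02 on the CKO arrays, against 12.22, 10.57 and 11.87 on the control arrays (log2 fold change -1.70, limma adjusted p = 0.217). Uba7, the activating enzyme, was at 8.70, 8.24 and 7.71 on the CKO arrays, against 9.52, 8.95 and 10.40 on the control arrays (-1.41, adjusted p = 0.32). Herc6, the main ligase in mouse, differed by -1.24 (adjusted p = 0.35; -0.80 without control replicate 3), and Trim25, a ligase that is itself induced by interferon, by -1.40 (0.177). These 4 genes had no overlap between groups. Arih1, a ubiquitin ligase reported to attach ISG15 to a cap-binding protein in human cells, was at 12.16 to 13.06 in CKO isolates and 12.64 to 12.93 in control isolates (-0.15, adjusted p = 0.875); its sign turned with quantile normalization and without CKO replicate 3.

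**Figure D2:**
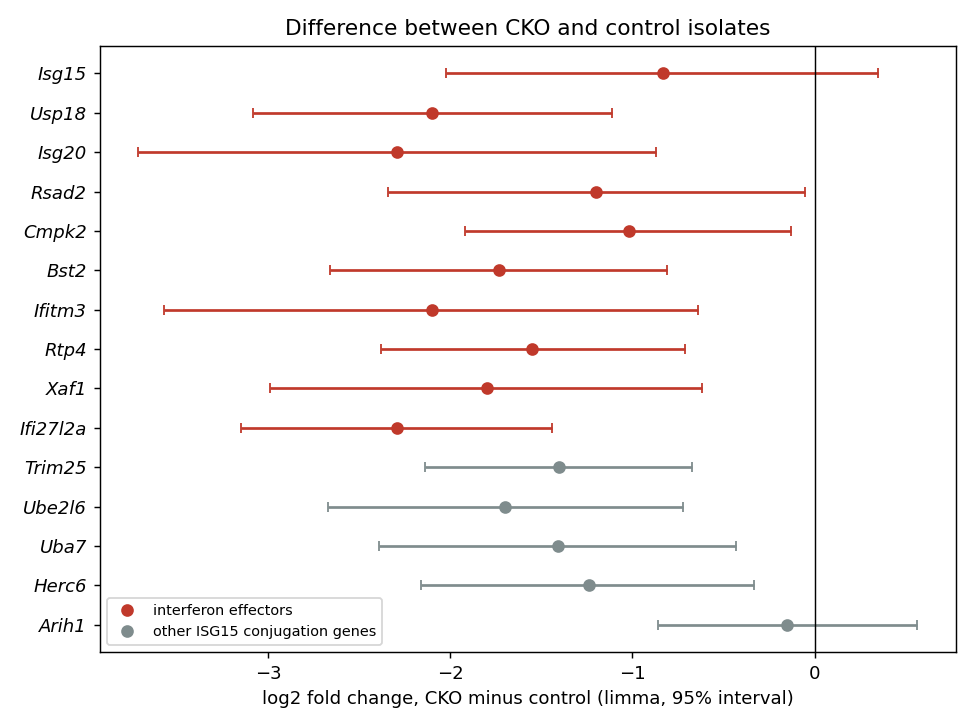
Log2 fold change of CKO minus control (horizontal axis) with its 95% interval from limma, for the 10 interferon effectors and the 5 other genes of Isg15 conjugation. The intervals of Isg15 and Arih1 include 0, and the other 13 lie below 0 before adjustment for the number of probe sets.

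Isg20 (chr7:78913396-78920396), an exonuclease that degrades single-stranded RNA, was at 8.82, 7.22 and 7.76 on CKO replicates 1 to 3, against 10.81, 8.87 and 10.99 on control replicates 1 to 3. The groups touch: control replicate 2 lay 0.05 above CKO replicate 1. The log2 fold change was -2.29 (SE 0.62, limma adjusted p = 0.247), and it became -2.73 when CKO replicate 1 was left out and -2.97 when control replicate 2 was (limma adjusted p = 0.0286 and 0.0626).

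Rsad2, which encodes viperin, and Cmpk2, a mitochondrial nucleotide kinase, are neighbours on chromosome 12 and point away from each other. Viperin turns CTP into a chain terminator of viral RNA synthesis, and Cmpk2 supplies CTP for that reaction. Rsad2 occupies chr12:26442743-26456452 and Cmpk2 chr12:26469117-26479837, with 12664 bases and 0 annotated RefSeq genes between them. Rsad2 was at 8.78, 7.89 and 7.94 on the CKO arrays, against 9.17, 8.56 and 10.47 on the control arrays (log2 fold change -1.20, SE 0.50, limma adjusted p = 0.485). Cmpk2 was at 8.35, 7.58 and 7.31 on the CKO arrays, against 9.20, 8.16 and 8.95 on the control arrays (-1.02, SE 0.39, adjusted p = 0.448). In both genes CKO replicate 1 lay above control replicate 2, so the groups overlap by 0.22 and 0.19 log2 units. Leaving out control replicate 3, the highest Rsad2 array, made the Rsad2 difference -0.66.

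Bst2 and Ifitm3 act at membranes. Bst2 (chr8:71534255-71537472) encodes tetherin, which holds budding virions on the cell surface, and is also a marker of plasmacytoid dendritic cells. It was at 9.27, 8.87 and 9.51 on the CKO arrays, against 10.85, 10.26 and 11.74 on the control arrays, with no overlap (log2 fold change -1.73, SE 0.41, limma adjusted p = 0.187). Ifitm3 (chr7:141009590-141010744), which blocks fusion of virions with endosomes, was at 13.65, 12.55 and 14.28 on the CKO arrays, against 16.16, 14.22 and 16.41 on the control arrays. CKO replicate 3 lay 0.06 above control replicate 2, which is the only overlap (log2 fold change -2.10, SE 0.64, limma adjusted p = 0.32). Ifitm3 had the highest SD of the set within CKO, 0.88, beside 1.20 in control (n = 3 each).

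The last 3 genes separated the groups on every array. Rtp4 (chr16:23520219-23614222), a chaperone of G protein-coupled receptors that also restrains antiviral responses, was at 8.89, 8.07 and 8.34 on the CKO arrays, against 10.16, 9.37 and 10.41 on the control arrays (log2 fold change -1.55, SE 0.37, limma adjusted p = 0.193). Xaf1 (chr11:72301461-72313733), which promotes cell death by binding the inhibitor XIAP, was at 9.38, 8.96 and 9.04 on the CKO arrays, against 11.20, 9.69 and 11.90 on the control arrays (-1.80, SE 0.52, adjusted p = 0.286). The CKO arrays lay close together for Xaf1, with an SD of 0.22, and the control arrays spread by 1.13 (n = 3 each). Ifi27l2a (chr12:103433873-103443680), which encodes a small interferon-induced membrane protein, was at 5.55, 6.07 and 6.15 on the CKO arrays, against 8.67, 7.49 and 8.49 on the control arrays. Its groups were the farthest apart of the 10, with 1.34 log2 units between the highest CKO array and the lowest control array (-2.29, SE 0.38, 95% interval -3.15 to -1.44, adjusted p = 0.103). Its p ranked 49 among the 22206 probe sets. In log2 values CKO replicate 1 was its lowest array, while for 6 of the 10 genes that array was the highest of its group. Its percentile among all probe sets was nearly flat within CKO, at 24.8, 24.8 and 26.9 on CKO replicates 1 to 3. The CKO values lay near the lower quartiles of those arrays (5.56, 6.08 and 6.05), so the probe set was dim in CKO. How far it was above background was not measured here.

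The 10 genes shared an order of the control arrays. Control replicate 2 was the lowest control for all 10, by 0.91 (Cmpk2) to 2.06 (Ifitm3) log2 units under the mean of control replicates 1 and 3. Control replicates 1 and 3 lay above every CKO array for all 10 genes, and control replicate 2 did so for 6. The highest array was control replicate 3 for 8 genes and control replicate 1 for Cmpk2 and Ifi27l2a. As deviations from each gene's mean over the 6 arrays, the median of the set was -0.57, -1.10 and -0.86 on CKO replicates 1 to 3, against 1.06, -0.15 and 1.66 on control replicates 1 to 3. The arrays without control replicate 2 gave 3 called genes (Usp18, Xaf1 and Ifi27l2a), beside 0.563% of probe sets called lower. All 10 genes were then without overlap, beside 14.1% of probe sets, which restates the order given above and is no further result. Without CKO replicate 1, 6 genes were called (Usp18, Isg20, Cmpk2, Bst2, Rtp4 and Ifi27l2a), beside 4.94% of probe sets called lower. Without both arrays all 10 genes were called lower (limma adjusted p from 0.00173 to 0.0253), beside 6.28% of probe sets, in a comparison of 2 CKO arrays of narrow range with 2 control arrays. Leaving out any other single array gave 0 called genes. Weighting the arrays by their fit, which set CKO replicate 1 to 0.26 and the others to 0.89 to 2.51, gave 8 called genes, all but Isg15 and Rsad2, beside 4.76% of probe sets called lower. The weights also move the CKO mean toward the 2 CKO arrays of narrow range. Probe sets were called higher too, 1113 without CKO replicate 1, 1121 without both arrays and 637 with array weights. Without control replicate 2 alone, 0 were called higher.

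**Figure D3:**
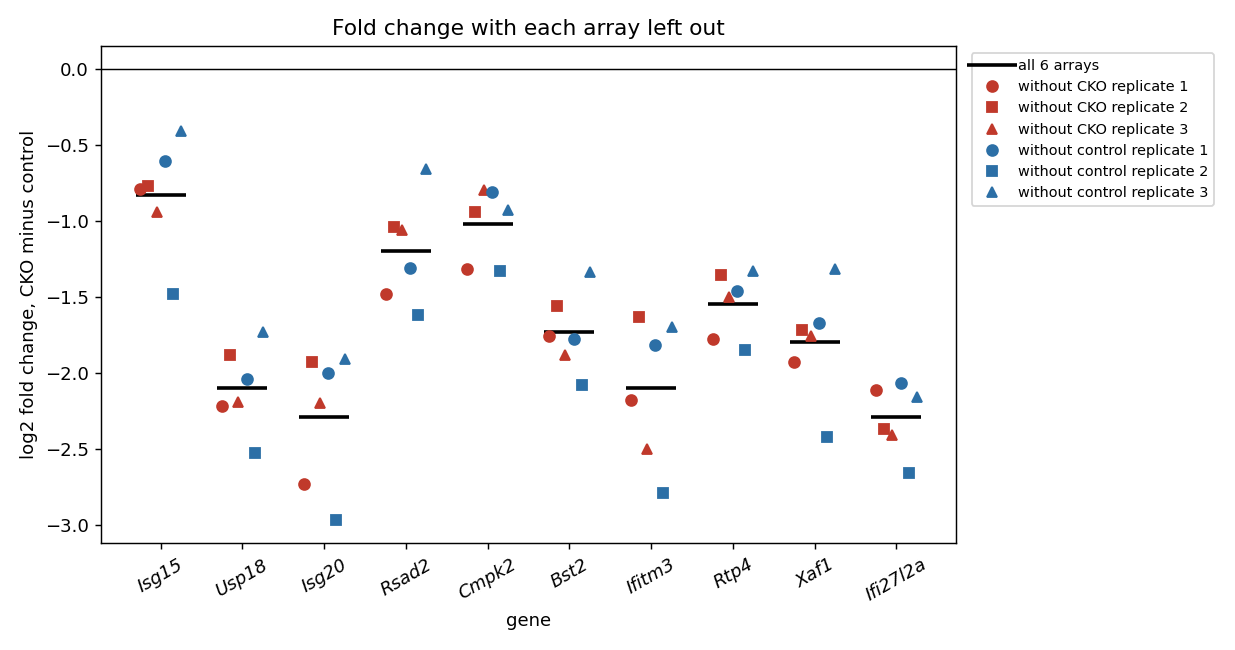
Log2 fold change of CKO minus control (vertical axis) of each gene with all 6 arrays (bar) and with each array left out (symbols). All values lie below 0. For all 10 genes the value without control replicate 2 (blue square) is the farthest from 0.

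Markers of leukocytes were lower in the same CKO isolates. T cell markers were lower in CKO for 14 of 14 genes, 13 of them at an unadjusted p under 0.05 (6.35% of all probe sets), 13 without overlap (8.48% of all) and 0 at the adjusted threshold. Their mean level was 6.43 to 6.81 on the CKO arrays, against 8.17 to 9.99 on the control arrays. Cd3e, a signalling chain of CD3, was at 6.48, 8.21 and 7.40 in CKO isolates, against 12.55, 9.59 and 12.45 in control isolates (log2 fold change -4.17, limma adjusted p = 0.121). NK cell markers were lower for 10 of 10 genes (mean level 6.64 to 7.24 in CKO, 7.34 to 8.70 in control) and blood monocyte and macrophage markers for 12 of 12 (10.49 to 11.27 in CKO, 12.05 to 12.78 in control). Control replicate 2 was the lowest control in these 3 lists as it was for the interferon effectors. Plasmacytoid dendritic cell markers, which include Bst2, were lower for 6 of 12 genes, with a median difference of -0.07. Of the 12, 3 were lower at an unadjusted p under 0.05 (6.35% of all probe sets), 3 without overlap (8.48% of all) and 0 at the adjusted threshold. Siglech stands in both this list and the microglial list, so the median is not specific to these cells. Mean levels of the list were 10.03 to 10.41 in CKO, against 10.47 to 11.01 in control. Ccr9, a chemokine receptor of that list, differed by -1.40 (adjusted p = 0.169). Its values in CKO were dim, at 5.14, 4.76 and 5.25, below the lower quartile of each array. No marker has a true 0 on this array, and fewer cells of a type and less RNA per cell cannot be told apart in bulk isolates. The part of these cells in the differences of the 10 genes was not tested.

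Markers of B and plasma cells and of border-associated macrophages also had lower means in CKO for most genes, and each list held genes with large differences. Of B and plasma cell markers 7 of 9 were lower (median log2 fold change -0.59), 2 of them at an unadjusted p under 0.05 and without overlap (6.35% and 8.48% of all probe sets). One was Jchain, which joins polymeric immunoglobulins, at 5.14, 8.80 and 5.98 on the CKO arrays, against 10.76, 11.02 and 13.09 on the control arrays. Its log2 fold change of -4.98 (SE 0.95, limma adjusted p = 0.121) was the lowest of the 19505 named genes. On CKO replicates 1 and 3 Jchain lay below the lower quartiles of the arrays, 5.56 and 6.05. The other was Cd22, a sialic acid receptor of B cells, at 6.32, 6.62 and 5.56 on the CKO arrays, against 8.14, 8.29 and 8.73 on the control arrays (-2.22, adjusted p = 0.0983). Of border-associated macrophage markers 7 of 9 were lower (median -0.59), with 4 lower and 1 higher at an unadjusted p under 0.05 and without overlap. Among all 22206 probe sets 6.35% were lower at that p and 8.48% lower without overlap, and 788 and 1319 probe sets were higher. Differences in the border-associated macrophage list ran from -2.58 to 1.33, and 2 of the 9 markers were higher in CKO. F13a1 stands in both this list and the list of blood monocytes and macrophages. Ms4a7, a membrane protein of macrophages, was at 8.60, 9.77 and 9.11 on the CKO arrays, against 11.25, 11.37 and 12.59 on the control arrays (-2.58, adjusted p = 0.108). Siglec1, a sialic acid receptor that interferon also induces, was at 6.43, 6.44 and 6.34 on the CKO arrays, against 7.81, 7.69 and 8.06 on the control arrays (-1.45, adjusted p = 0.108). The part of these cells in the differences of the effectors was not tested either.

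Of neutrophil markers 8 of 10 were lower (median log2 fold change -0.44) and of endothelial markers 4 of 9 (0.14). Astrocyte, oligodendrocyte and neuron markers were higher for 8 of 10, 6 of 8 and 8 of 8 genes, with medians of 0.82, 0.47 and 0.82. CKO replicate 1 was the highest array in each of these lists, and control replicate 2 the next. As lists they deviated by 2.75, 1.47 and 1.65 on CKO replicate 1 and by 1.25, 0.95 and 0.62 on control replicate 2. Deviations on CKO replicates 2 and 3 were -0.88 and -0.89 (astrocyte), -0.43 and -0.5 (oligodendrocyte) and -0.3 and 0.07 (neuron). On control replicates 1 and 3 they were -0.78 and -1.45, -0.79 and -0.7, and -0.83 and -1.21. Microglial markers were higher for 8 of 11 (0.33), led by Fcrls and Gpr34 at 1.21 and 0.89 (limma adjusted p = 0.312 and 0.383). No gene of the B cell, border-associated macrophage or these 6 lists passed the adjusted threshold.

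**Figure D4:**
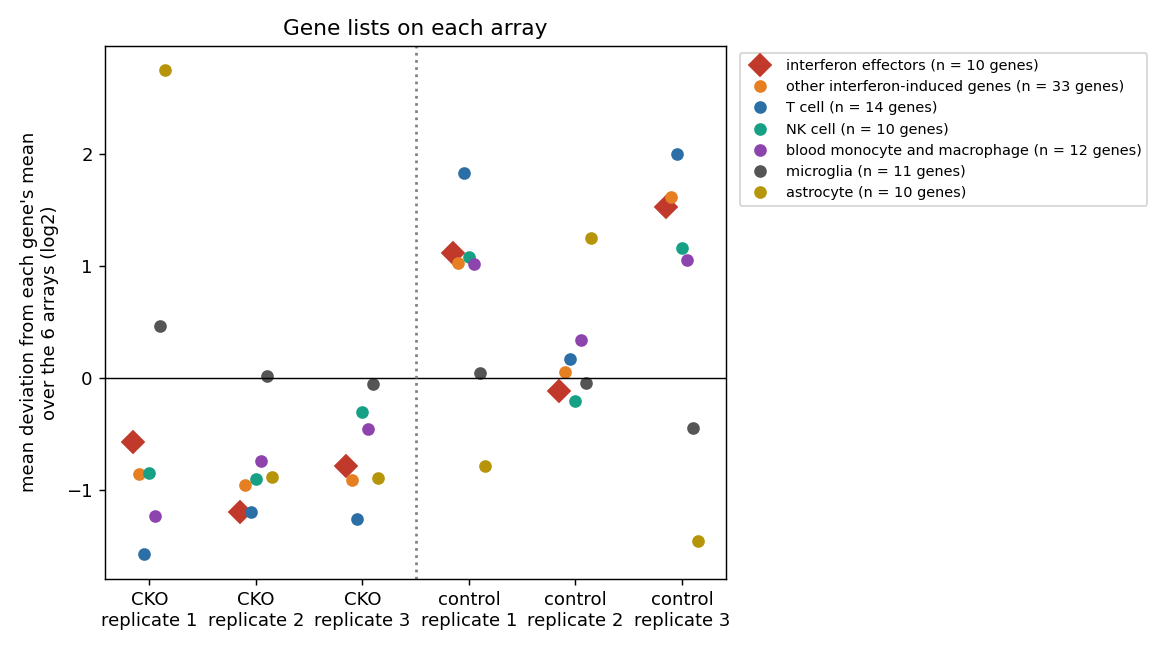
Mean deviation of each gene list from its genes' means over the 6 arrays (vertical axis, log2), for CKO and control replicates (horizontal axis). The interferon effectors (diamonds) stand at -0.57, -1.19 and -0.78 on CKO replicates 1 to 3 and 1.12, -0.11 and 1.53 on control replicates 1 to 3, beside -0.85, -0.95 and -0.91 in CKO and 1.03, 0.06 and 1.62 in control for the 33 other interferon-induced genes.

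Signals upstream of the set were uneven. Of 11 measured interferon ligand genes 3 had lower means in CKO and the other 8 had equal or higher ones. At an unadjusted p under 0.05 stood 1 gene, lower in CKO, beside 6.35% of all probe sets in that direction. That gene was Ifng, made mainly by T and NK cells, at 6.68, 7.43 and 6.46 on the CKO arrays, against 9.15, 7.43 and 7.76 on the control arrays (log2 fold change -1.26, limma adjusted p = 0.45). CKO replicate 2 and control replicate 2 had the same Ifng value, and without control replicate 1 the difference was -0.74 and no longer passed the unadjusted threshold. The type I ligands Ifna5 and Ifna2 differed by 0.59 and 0.42, Ifne by 0.05 and Ifna13 by 0.0, and the type III ligand Ifnl3 by -0.44, at adjusted p from 0.621 to 1. The 11 ligand genes had a mean level of 5.63 to 6.60, below the array medians of 7.13 to 7.34. Ifne (5.0 to 5.97) and Ifna13 (4.95 to 6.29) lay around the lower quartiles of the arrays, 5.56 to 6.08. Whether these ligands were detected was not measured here, so a small difference may not be a lack of change. Of 13 measured receptor and signalling genes all were lower, 8 at an unadjusted p under 0.05 (6.35% of all probe sets), 7 without overlap (8.48% of all) and 0 at the adjusted threshold, with a median of -0.75. Irf7, which amplifies type I interferon production, was at 7.07, 5.63 and 6.22 on the CKO arrays, against 10.24, 8.20 and 10.61 on the control arrays (-3.38, adjusted p = 0.121). Irf1, a target of interferon-gamma, differed by -2.0 (0.121), Stat2 by -1.98 (0.239) and Jak2 by -1.04 (0.279). The receptor chains Ifnar2 and Ifngr1 differed by -0.48 and -0.35 (0.598 and 0.671), by -0.18 and -0.04 with quantile normalization, and by as little as -0.28 (without CKO replicate 3) and -0.20 (without control replicate 2).

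The 33 other measured interferon-induced genes differed between groups by similar amounts. All 33 had lower means in CKO, 31 at an unadjusted p under 0.05 (6.35% of all probe sets), 30 without overlap (8.48% of all) and 0 at the adjusted threshold, with a median log2 fold change of -1.79 beside -1.77 for the 10 effectors. Slfn5, a Schlafen gene, differed by -3.18 (limma adjusted p = 0.0745), and Ifit3b, Ifit3 and Oasl2 by -2.68, -2.77 and -2.62 (0.0891 to 0.102). At the other end Oasl1 and Oas1b differed by -0.67 and -0.64 (0.511 and 0.57); the Oasl1 probe set was dim, at 3.29 to 3.37 in CKO and 3.58 to 4.46 in control. Whether the 10 effectors differ from these genes as a group was not tested.

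Relatives of the members were less uniform, with 8 of 9 measured genes lower and a median of -0.43. An unadjusted p under 0.05 was reached by 2 (6.35% of all probe sets as lower), and 2 had no overlap (8.48% of all). Ifitm2, a paralog of Ifitm3, was at 13.38, 12.60 and 13.69 on the CKO arrays, against 15.09, 14.0 and 15.11 on the control arrays (log2 fold change -1.51, limma adjusted p = 0.258). Isg20l2, a nucleolar relative of Isg20, differed by -0.76 (0.504), Ifitm1 by -0.99 (0.568) and Ifi27 by -0.92 (0.631). Ifitm1 was at -0.48 without CKO replicate 2 and -0.65 without control replicate 1, and Ifi27 at -1.60 without CKO replicate 1 and -0.25 without CKO replicate 3. Ifitm6 and Ifitm7 differed by -0.12 and -0.06 (0.936 and 0.957), and their signs turned under some settings. No other probe set had values identical to those of a member on all 6 arrays. Sequence overlap between the probes of Ifitm relatives was not examined.

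The genes whose profile over the 6 arrays lay nearest to the median profile of the set were Nod1, a sensor of bacterial peptidoglycan, Parp10, an ADP-ribosyltransferase, Ifi30, a lysosomal thiol reductase, Lgals1 (galectin-1), Nampt, an enzyme of NAD synthesis, and Tor3a, an interferon-induced torsin. Their root mean square distances were 0.13 to 0.18 log2 units, with group differences from -1.98 (Tor3a) to -1.53 (Nampt, -0.99 without control replicate 3). Among the members themselves the distance was smallest for Xaf1 (0.14), followed by Usp18 and Bst2 (0.24 each) and Rtp4 (0.25), and largest for Ifitm3 (0.52). The members helped to set the median profile and the 6 arrays are shared by all genes, so these distances are a description.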

How the data were processed

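Total RNA of brain microglia isolates was labelled with biotin as cDNA and hybridised to Affymetrix arrays, per the labels' protocols. The deposited log2 values, 1 for each probe set on each array, were made by the authors with RMA, per the submitters' processing notes; the sources used here do not give its version, settings or annotation. Values ran from 2.93 to 19.93, and the number of arrays limits the precision. Of 22206 probe sets, 19572 had 1 gene symbol in the platform annotation, 0 had several and 2634 are unnamed here, which gave 19505 genes. A gene with more than 1 probe set (55 genes) was represented by the one with the highest mean.

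Groups came from the sample titles. The fit used limma 3.58.1 (R 4.3.3), with lmFit, eBayes without a trend and no covariate, for CKO minus control. Tests were two-sided, adjusted by Benjamini-Hochberg over all probe sets at a threshold of 0.05, and the script was tested on simulated data. Exact permutation of 3 against 3 arrays, whose smallest p is 0.1, was left aside. Correlations of the deviations from the group means were -0.005, -0.23 and 0.254 for same-numbered replicates, and from -0.334 to 0.304 for differently numbered ones. Deviations within a group of 3 depend on each other, so these values cannot settle whether replicates were paired.

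The members and lists were chosen with earlier results of these data known. Besides the members, the rule named all genes of Isg15 conjugation, the 4 smallest and 2 largest p of each interferon list, the 6 nearest profiles, and markers, of which those beside a result are given. Alternatives were arrays left out, array weights, the replicate block, median centring, quantile normalization, averaged probe sets, the dimmest 20% or 50% left out, a robust fit with a trend, and an adjusted p of 0.1.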

Additional observations from a re-analysis of the deposited data

How the results depend on the processing

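All 148 alternative values of the 10 fold changes were lower in CKO, and 27 of them passed the adjusted threshold of 0.05. The 27 came from array weights or from leaving out CKO replicate 1, control replicate 2 or both. Leaving out dim probe sets, averaging probe sets, the replicate block and the trended robust fit cannot change these fold changes, only their p. The count of effectors called was 8 with array weights, which gave CKO replicate 1 a weight of 0.26 against 0.89 to 2.51 on the other arrays, and 10 without CKO replicate 1 and control replicate 2. It ranged from 0 to 6 when 1 array was left out, was 0 with the replicate block, and was 0 in all other settings. Effectors lower at an unadjusted p numbered 7 to 10 when 1 array was left out and 9 with the replicate block. Effectors without overlap numbered 6 to 10 when 1 array was left out and 10 without both arrays. Their median log2 fold change was -2.25 to -1.34 when 1 array was left out, -1.59 with quantile normalization and -1.77 with the replicate block. Over the whole array, 2 probe sets were called, against 1694 with array weights, 1 with the dimmest 20% left out, 1 with the dimmest 50% left out, 1 with quantile normalization, 0 with the replicate block, 4 with the trended robust fit, 44 at an adjusted p of 0.1, 2516 without both arrays and 0 to 2209 when 1 array was left out. The block changed no call of an effector, and the labels give same-numbered samples nothing in common but the number.

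Ifna13 differed by 0.0 and has no direction to keep. Of 740 alternative values of the other 50 named genes, 727 kept their direction at 2 decimals, 1 was 0.0 (Ifne without control replicate 2) and 12 turned. Leaving out dim probe sets, the replicate block and the trended robust fit repeat the main fold changes, so those values could not turn. With quantile normalization Arih1, Ifne and Ifitm6 were at 0.10, -0.11 and 0.13, and with median centring Ifne was at -0.07. Without CKO replicate 1 Ifitm7 was at 0.16, without CKO replicate 2 Ifna2, Ifne and Ifitm6 were at -0.01, -0.26 and 0.23, without CKO replicate 3 Arih1 was at 0.07, and without control replicate 1 Ifitm6 was at 0.24. Ifitm7 was at 0.05 with array weights and at 0.12 without both arrays. When 1 array was left out, Arih1 ranged from -0.38 to 0.07, Ifna2 from -0.01 to 0.81, Ifne from -0.26 to 0.22, Ifna13 from -0.38 to 0.29, Ifitm6 from -0.48 to 0.24 and Ifitm7 from -0.24 to 0.16. Differences that moved by over 1.5 times without turning included Ifna5 (0.59, against 0.33 without CKO replicate 2 and 1.0 without CKO replicate 1), Ifnl3 (-0.44, against -0.08 without CKO replicate 3 and -0.79 without CKO replicate 2) and Slc1a2 (1.5, against 0.11 without CKO replicate 1 and 2.7 without control replicate 2). The cause was not tested. Isg15, Oasl1, Ifne and Ifna13 lay low on the arrays and have an uncertain level, as has Ifi27l2a in CKO. The same holds for Ccr9, below the lower quartile on every CKO array. Others, such as Jchain and Irf7, lay below it on some CKO arrays. Ifitm3 and P2ry12 lay high, where values may be compressed. P2ry12 was at the highest value of CKO replicates 2 and 3 (19.72 and 19.70), whereas Ifitm3 ran from 12.55 to 16.41.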
